A study of Mus musculus with 4 samples.

Results

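The genes described here are 40 members of the cell cycle and DNA replication machinery, measured in mouse liver. They were taken as a list of symbols, of the 18193 gene symbols named on the array. The list was chosen with earlier results of these data known, which bears on every comparison of members with all genes. The members were divided by role into 7 cyclins and kinases of the G1 phase, 12 genes of DNA replication and 21 genes of mitosis. Each gene was represented by its brightest probe set with that symbol alone, judged by the mean log2 signal over the 4 arrays. A probe set was found for 39 members, and Ccnb1 was not analysed here. Of these, 31 members reached the median signal of an array on at least 1 array, and together with 12444 genes in all they entered the comparisons.

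Adult hepatocytes are mostly out of the cell cycle and return to it when the liver is injured or resected. Cyclins of the D type bind Cdk4 and Cdk6 in G1 and phosphorylate the retinoblastoma proteins, which frees E2F factors to switch on genes of DNA synthesis. Cdc6 and Cdt1 then load the ring of Mcm2 to Mcm7, the replicative helicase, and mitosis later follows from the activity of Cdk1 with its A and B cyclins.

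Total RNA came from livers of male mice, and 1 array was hybridised for each of 4 groups. These were chow-fed wild-type, chow-fed LASS2-/-, wild-type fed a high-fat diet and LASS2-/- fed a high-fat diet. All groups received a defined diet from 3 weeks of age, with 10% of calories from fat in the chow and 60% in the high-fat diet. LASS2 is the older name of Cers2, a ceramide synthase. The labels give neither the strain, the age at sampling, how the deletion was made nor whether an array held RNA of 1 animal or of a pool. There were no replicates, so no difference here carries an error between animals, and the number of arrays limits the precision.

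The deposited values are log2 signals, and the array medians lay between 6.17 and 6.28. A ratio was taken after raising values under an array's median to that median, and it is written as "at least" where the dimmer array lay under it. Cers2 itself had log2 signals of 12.46 and 12.25 on the arrays labelled wild-type and 12.32 on both arrays labelled LASS2-/- (chow and high-fat diet), so its probe set did not fall with the label, and which part of the transcript it reads was not determined. Genotype is therefore given as the label of the array. The hepatocyte genes Alb, Apoa1 and Ttr had log2 signals of 15.02 or more on every array. Fgb (15.09 and 15.07) and Cps1 (14.99 and 14.92) were lower on the high-fat arrays (wild-type, then LASS2-/-) than on the chow arrays. All 5 measured hepatocyte markers had a mean diet change below 0. A gene's mean change was tested with limma in a model with a term for diet and a term for genotype, whose only error is how far an effect differs between the levels of the other factor. The value after ± is the standard error from limma, which borrows most of its information from other genes of similar signal.

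**Figure D1:**
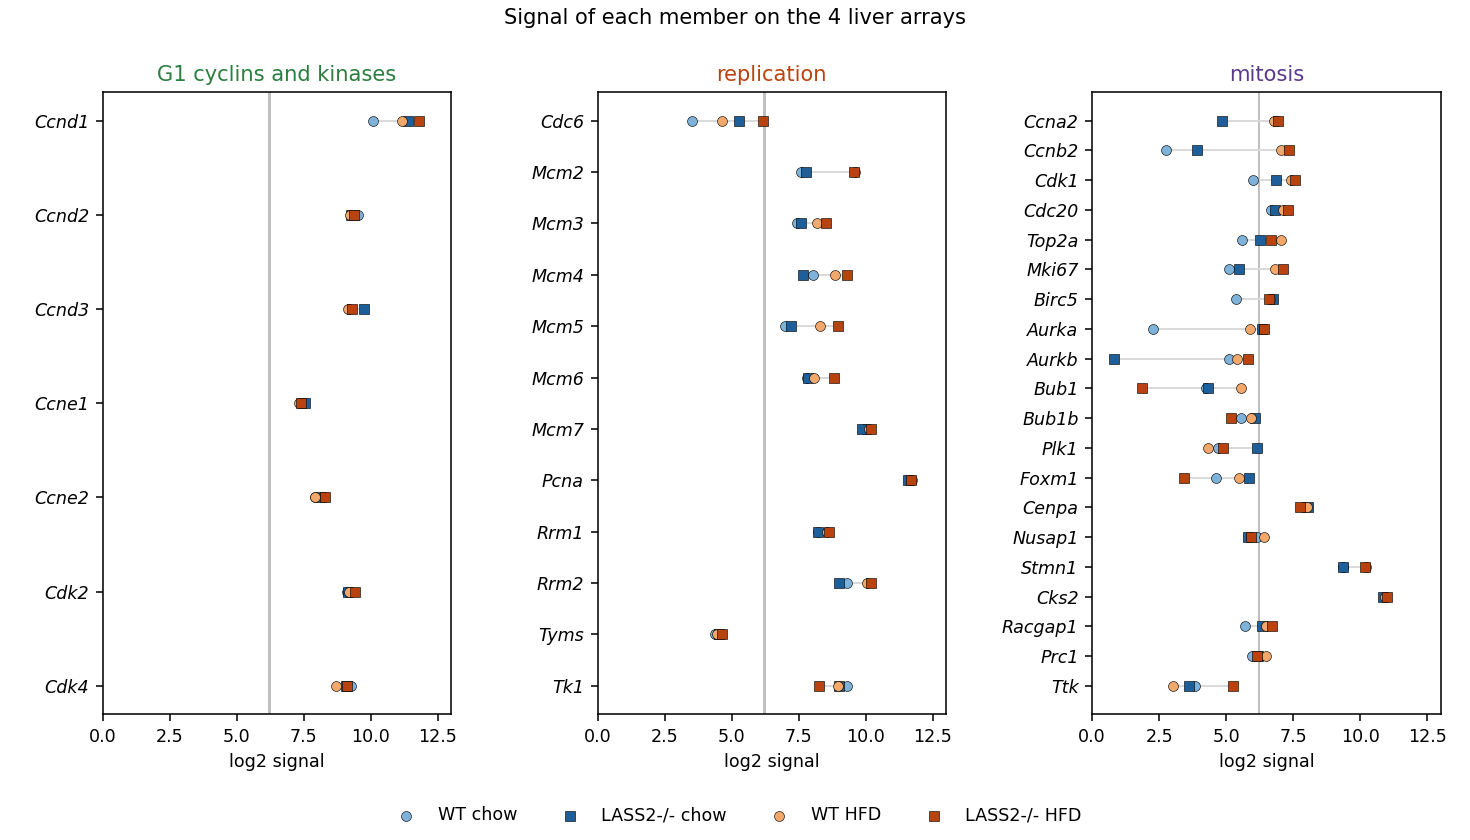
Log2 signal of the 39 measured members on each of the 4 arrays, in 3 panels by role; circles are arrays labelled wild-type, squares are arrays labelled LASS2-/-, blue is chow and orange the high-fat diet, and the grey band spans the array medians from 6.17 to 6.28. Signals compare arrays within a row, not rows with each other. The high-fat arrays lie to the right of the chow arrays for Mcm2, Mcm3, Mcm4, Mcm5, Rrm2, Stmn1 and Ccnb2, and many mitosis genes lie left of the band.

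With the high-fat diet, 8 of the 31 members that entered rose and 0 fell in limma, beside 11.2% of all genes that changed in either direction (6.16% rose and 5.02% fell). These were Ccnd1 of the G1 group, Mcm2, Mcm3, Mcm4, Mcm5 and Rrm2 of the replication group, and Ccnb2 and Stmn1 of the mitosis group. The median log2 change of the entered members was 0.56, against 0.02 over all genes. Ccnb2, Mki67, Top2a, Nusap1 and Prc1 entered through high-fat arrays alone, so the filter bears on this median and on the call of Ccnb2. The 10 replication members that entered were at or above the array median on every array, and their median change was 0.74. With the LASS2-/- label, 1 of the 31 members rose, Ccnd1, and 0 fell, beside 0.852% of all genes that changed (0.514% rose and 0.338% fell). The trend of variance with signal carries these calls: without it limma called 0 of all 12444 genes for either factor, with 10 members at an unadjusted p under 0.05 for diet and 1 for genotype, against 12 and 3 with it.

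The direction of the diet difference could also be read without a model. Both high-fat arrays were above both chow arrays in 18 of the 31 members, which is 58.1%, where the same held for 27.3% of all genes, and both were below in 1 member, where 23.3% of all genes were. The members so placed were 1 of 7 in the G1 group (Cdk2), 9 of 10 in the replication group and 8 of 14 in the mitosis group. This placement takes a gap of any size, such as 1.01-fold for Cks2 in wild-type, for members and all genes alike. The exception in the replication group, Tk1, was the member with both high-fat arrays lower. Some members entered only because they were high on the high-fat diet, so the same was counted over all 39 measured members without any filter: 25 of them, or 64.1%, were higher on the high-fat diet in both genotypes, against 30.9% of all named genes. Bulk RNA cannot tell more cycling cells from more transcript in each cell.

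**Figure D2:**
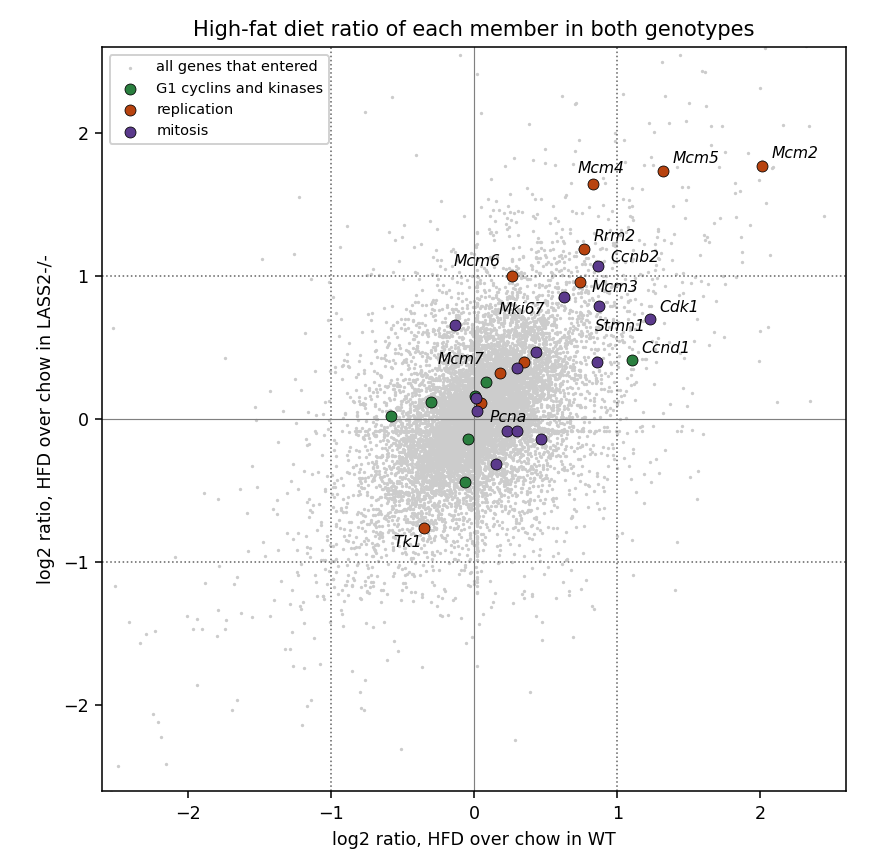
Log2 ratio of the high-fat over the chow array in wild-type (x axis) and in LASS2-/- (y axis) for all 12444 genes that entered (grey) and the 31 members, coloured by role; dotted lines mark 2-fold and values under an array's median were raised to it. A few grey genes lie beyond the axes. Mcm2 and Mcm5 lie beyond 2-fold on both axes, Mcm4, Rrm2, Ccnb2 and Mcm6 on the y axis alone, and Ccnd1 and Cdk1 on the x axis alone.

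The G1 group had 7 members, and all were at or above the array median on every array. Ccnd1 encodes cyclin D1, which couples growth signals to entry into the cell cycle. Its log2 signal was 10.08 in wild-type and 11.40 in LASS2-/- on chow, and 11.18 in wild-type and 11.81 in LASS2-/- on the high-fat diet. The wild-type chow array was thus the lowest and the array with both the LASS2-/- label and the high-fat diet the highest. On chow Ccnd1 was 2.50-fold higher on the array labelled LASS2-/-, the only member at least 2-fold apart there, beside 1.59% of all genes (1.17% higher and 0.426% lower). On the high-fat diet it was 1.55-fold higher, where 0 members reached 2-fold, beside 1.97% of all genes (1.48% higher and 0.49% lower).

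The high-fat array exceeded the chow array for Ccnd1 2.14-fold in wild-type and 1.33-fold in LASS2-/-. Whether these effects depend on each other could not be tested, since the additive model uses that very difference as its error. In limma Ccnd1 changed by 0.98 ± 0.14 on the log2 scale with the LASS2-/- label (adjusted p = 0.00469) and by 0.76 ± 0.14 with the high-fat diet (adjusted p = 0.00334). The genotype call was lost with quantile normalization (adjusted p = 0.059), with equal array medians (0.0786), with the mean of all probe sets (0.0704) and with robust moderation (0.103), while its change stayed between 0.84 and 0.98. The diet call was lost with the mean of all probe sets, at 0.55 with adjusted p = 0.0715. Ccnd1 had 3 probe sets, and on the others the mean log2 difference was 0.71 and 0.83 for the LASS2-/- label and 0.27 and 0.63 for the high-fat diet.

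The other D cyclins, which serve the same kinases, differed less between arrays. Ccnd2 had log2 signals of 9.53, 9.25, 9.23 and 9.37 on chow (wild-type, then LASS2-/-) and on the high-fat diet (wild-type, then LASS2-/-), the order used for all members from here on. Its differences ran in both directions, and its limma changes were -0.07 ± 0.16 for genotype (adjusted p = 0.949) and -0.09 ± 0.16 for diet (adjusted p = 0.791). Ccnd3 had 9.20, 9.74, 9.14 and 9.31, with the highest value on LASS2-/- chow. Its limma genotype change of 0.36 ± 0.16 had an adjusted p of 0.443. Its other 2 probe sets both had a mean genotype difference below 0, but reached the array median on only 1 array and on 0 arrays.

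The E cyclins and the G1 kinases did not pass either test. Ccne1 had log2 signals of 7.37, 7.54, 7.32 and 7.40 and Ccne2 had 7.90, 8.13, 7.90 and 8.30, each a regulatory partner of Cdk2 at the start of S phase. In both, the arrays labelled LASS2-/- were above both wild-type arrays, as they were in Ccnd1 and Ccnd3, but by at most 1.32-fold on either diet. This placement held for 4 of the 7 members in the G1 group, 0 of 10 in the replication group and 1 of 14 in the mitosis group (Aurka), beside 14.8% of all genes. The reverse placement held for 1 member, Nusap1, beside 13.4% of all genes. Over all 39 measured members without a filter, 18 were higher with the LASS2-/- label on both diets, or 46.2%, against 28.5% of all named genes. Cdk2 had log2 signals of 9.10, 9.15, 9.18 and 9.41. Cdk4, the partner of the D cyclins, had 9.27, 9.07, 8.69 and 9.09, lowest on wild-type high-fat diet, and its other probe sets had diet differences of 0.26 and 0.10 where the brightest had -0.28.

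**Figure D3:**
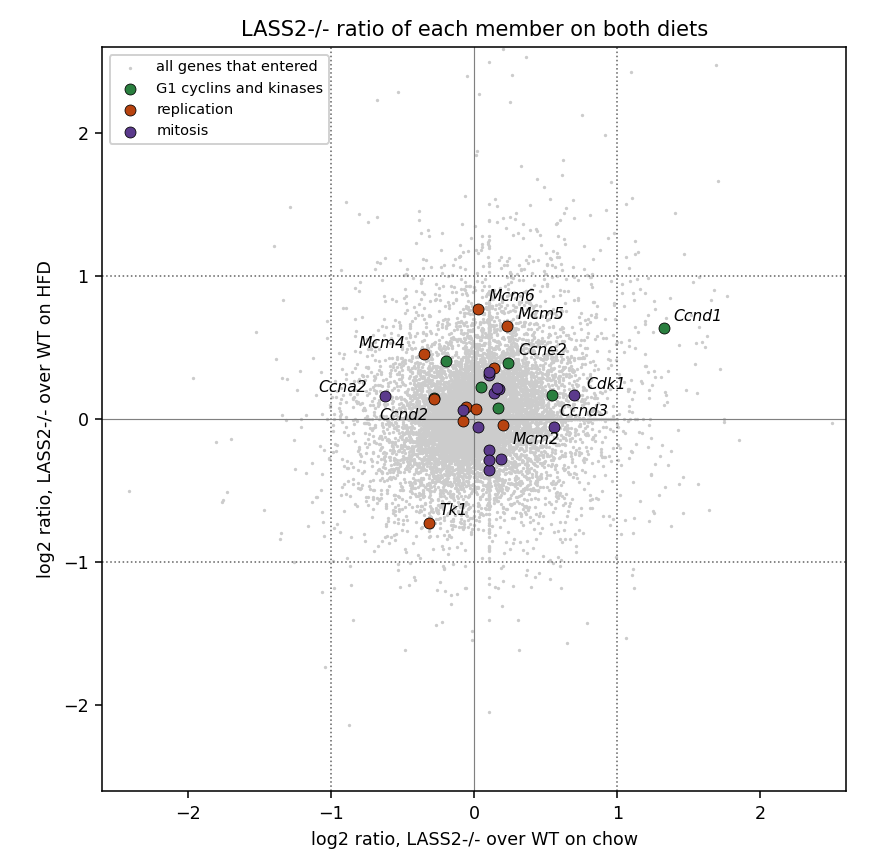
Log2 ratio of the array labelled LASS2-/- over the array labelled wild-type on chow (x axis) and on the high-fat diet (y axis), for all 12444 genes that entered (grey) and the 31 members, coloured by role; dotted lines mark 2-fold, a few grey genes lie beyond the axes, and genes under the median on both chow arrays take an x value of 0.10 from the medians alone. Ccnd1, at 1.32 and 0.64, lies apart from the other members, whose points lie within 2-fold on both axes.

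In the replication group 5 of the 10 members that entered rose with the diet in limma, and the group's median log2 ratio was 0.54 in wild-type and 0.98 in LASS2-/-, against 0.02 and -0.0042 over all genes. Without probe sets ending in _x_at or _s_at these medians were 0.22 and 0.66, and the wild-type median was 0.34 with the floor at the 25th percentile. Mcm2 to Mcm7 form the hexameric helicase that opens DNA ahead of the replication fork. Mcm2 had log2 signals of 7.59, 7.79, 9.60 and 9.56, so on this probe set the chow arrays lay together and the high-fat arrays lay together. Its other set, with 6.49, 6.08, 7.02 and 7.80, did not group so closely. On the chosen set Mcm2 was 4.03-fold higher on the high-fat diet in wild-type and 3.42-fold in LASS2-/-, and the limma change was 1.89 ± 0.18 (adjusted p = 1.2e-05). Mcm5 had 6.997, 7.23, 8.32 and 8.97, a 2.49-fold and a 3.33-fold difference, and a limma change of 1.53 ± 0.24 (adjusted p = 0.000766). Here too no chow array reached a high-fat array.

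Mcm4 had log2 signals of 8.03, 7.68, 8.86 and 9.32, and was 1.78-fold higher on the high-fat diet in wild-type and 3.12-fold in LASS2-/- (limma change 1.24 ± 0.22, adjusted p = 0.00201). Mcm3 had 7.44, 7.57, 8.18 and 8.53, a smaller difference of 1.67-fold and 1.94-fold (limma change 0.85 ± 0.23, adjusted p = 0.0275). Mcm6 had 7.81, 7.84, 8.07 and 8.84. Its highest value stood apart from the other arrays, with a 1.20-fold difference in wild-type and a 2.01-fold difference in LASS2-/-, and it did not pass (adjusted p = 0.102 in limma). Mcm7 had 9.94, 9.88, 10.12 and 10.20, differences of 1.13-fold and 1.25-fold (adjusted p = 0.273 in limma). The subunits of the ring thus shared the direction on these probe sets, with log2 diet ratios from 0.18 to 2.01 in wild-type and from 0.32 to 1.77 in LASS2-/-. None passed for genotype, with limma changes from 0.01 to 0.44.

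The size of the change depended on the probe set. The chosen sets of Mcm2 and Mcm3 end in _s_at and that of Mcm5 in _x_at, suffixes by which Affymetrix marks sets that can read more than a single transcript or contain cross-hybridising probes. With such sets left out, the diet change was 1.12 for Mcm2 (adjusted p = 0.0971 in limma), 1.12 for Mcm5 (0.2) and 0.39 for Mcm3 (0.783). All were still above 0, but none passed. Averaging the probe sets ended the calls of Mcm3 (adjusted p = 0.182 in limma) and Mcm5 (0.218) as well, although the changes were then larger, at 1.13 and 1.83. That of Mcm3 was also lost with no filter on signal (0.0781), with its change at 0.85 as before. Mcm4 kept its call in each alternative tried except the fit without trend, with changes from 1.16 to 1.27. Of the 4 probe sets of Mcm7, 2 had a mean diet difference below 0.

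**Figure D4:**
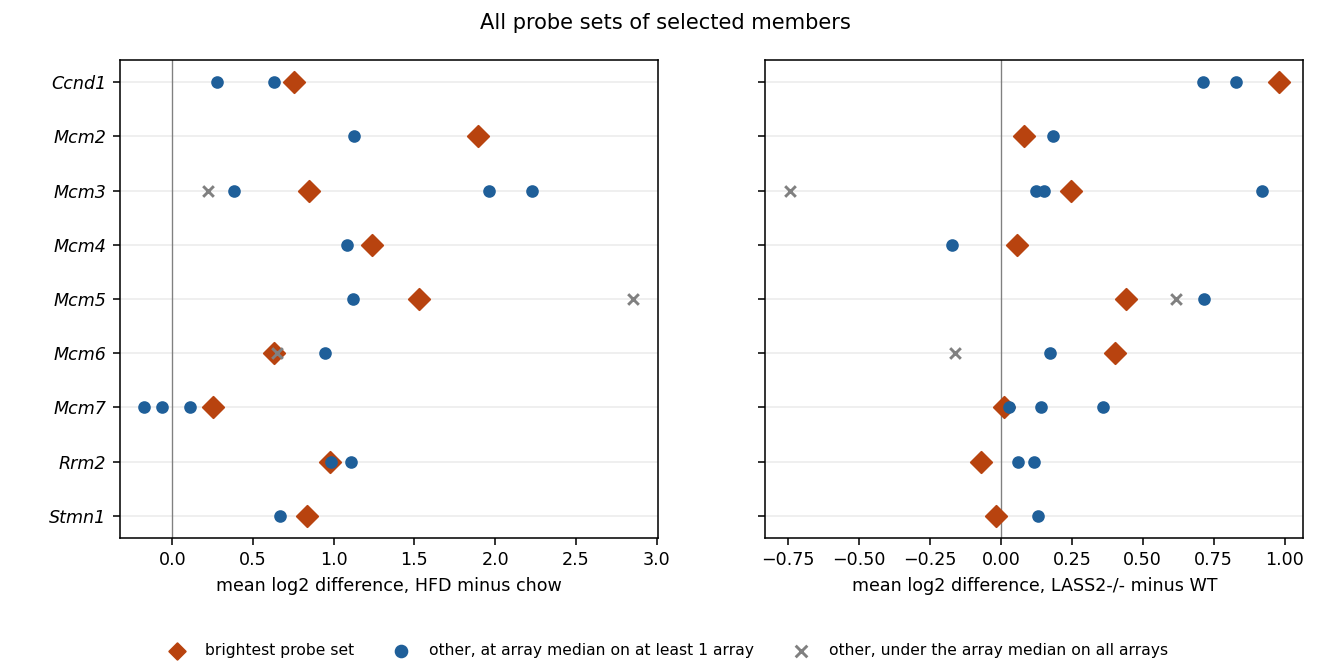
Mean log2 difference of the high-fat over the chow arrays (left) and of the arrays labelled LASS2-/- over those labelled wild-type (right) for every probe set of 9 members; diamonds are the brightest set, circles other sets at the array median on at least 1 array, crosses sets under it on all arrays. On the left all sets of Ccnd1, Mcm2, Mcm3, Mcm4, Mcm5, Mcm6, Rrm2 and Stmn1 lie above 0, and those of Mcm7 lie on both sides of it.

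Rrm1 and Rrm2 are the large and the small subunit of ribonucleotide reductase, which makes deoxyribonucleotides, and the small subunit is made in S phase. Rrm2 had log2 signals of 9.30, 9.02, 10.07 and 10.21, with both high-fat arrays above both chow arrays. It was 1.70-fold higher in wild-type and 2.28-fold in LASS2-/-, with a limma change of 0.98 ± 0.15 (adjusted p = 0.000751). The 3 probe sets of Rrm2 had mean diet differences of 0.98, 0.98 and 1.11. On the 2 sets not chosen the order of the genotypes was reversed, with log2 diet differences of 1.31 and 1.30 in wild-type and 0.66 and 0.91 in LASS2-/-. Its call too was lost in the fit without trend only. Rrm1 had 8.22, 8.24, 8.57 and 8.64, which are differences of 1.27-fold and 1.32-fold in the same direction (adjusted p = 0.256 in limma). Another Rrm1 probe set above the median of every array had 7.23, 7.70, 7.41 and 7.23, with a mean diet difference of -0.15.

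The remaining members of this group did not pass. Pcna, the sliding clamp of DNA polymerase, had log2 signals of 11.67, 11.60, 11.72 and 11.71, so the high-fat arrays lay above the chow arrays by 1.04-fold in wild-type and 1.08-fold in LASS2-/- (limma diet change 0.08 ± 0.10, adjusted p = 0.679). Tk1, the cytosolic thymidine kinase, had 9.32, 9.01, 8.98 and 8.25, the reverse order to the helicase genes. Its lowest value was on the LASS2-/- high-fat array, its limma changes were -0.55 ± 0.17 for diet (adjusted p = 0.0592) and -0.52 ± 0.17 for genotype (adjusted p = 0.267), and it passed neither test. The helicase loader Cdc6 (3.52, 5.26, 4.63 and 6.17) and the thymidylate synthase Tyms (4.37, 4.55, 4.46 and 4.64) were under the median of every array and did not enter.

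Promoter sequences show which letters known for cell cycle control stand before these genes. RefSeq entries on GRCm38.p6 were matched for 32 of the 40 members, not for Ccnd1, Ccnd2, Ccne2, Mcm4, Ccna2, Aurkb, Foxm1 and Stmn1. The 250 bases before each start site were searched on both strands for CCAAT, the box bound by NF-Y, for the E2F letters TTTCCCGC, TTTCGCGC, TTTGCCGC or TTTGGCGC, and for the letters of the cell cycle homology region, as TTTGAA and also in the spelling TTCGAA on either strand. The NF-Y box was present in 25 of the 32 members (78.1%), against 37.5% of 27025 genes with a promoter of that length. The E2F letters were present in 6 members (18.8%), against 2.16% of genes: Cdc6, Cdk1, Cdk2, Mcm5, Mcm6 and Mcm7. The homology region letters were present in 9 members (28.1%), against 19.6% of genes, of which 7 belonged to the mitosis group. Genes differ in base composition, and a match is a description of letters, not a bound site.

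Below are 5 promoters of members that rose with the diet and, for contrast, that of Pcna, which did not pass. They lie at chr6:88898781-88899030 (minus strand) for Mcm2, chr1:20820313-20820562 (minus strand) for Mcm3, chr8:75109259-75109508 (plus strand) for Mcm5, chr12:24708004-24708253 (plus strand) for Rrm2, chr9:70421555-70421804 (minus strand) for Ccnb2 and chr2:132253181-132253430 (minus strand) for Pcna, and each is written 5′ to 3′ with matches to any of these letters in capitals.
Mcm2: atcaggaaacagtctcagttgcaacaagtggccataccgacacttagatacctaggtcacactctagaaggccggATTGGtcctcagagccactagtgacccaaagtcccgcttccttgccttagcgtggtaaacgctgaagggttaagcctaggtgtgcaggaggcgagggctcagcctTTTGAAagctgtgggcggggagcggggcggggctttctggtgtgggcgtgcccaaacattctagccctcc
Mcm3: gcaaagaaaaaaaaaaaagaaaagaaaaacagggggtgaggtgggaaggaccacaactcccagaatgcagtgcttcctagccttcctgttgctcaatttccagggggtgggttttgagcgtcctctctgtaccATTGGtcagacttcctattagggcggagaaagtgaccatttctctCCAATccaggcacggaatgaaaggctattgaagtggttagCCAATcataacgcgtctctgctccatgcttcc
Mcm5: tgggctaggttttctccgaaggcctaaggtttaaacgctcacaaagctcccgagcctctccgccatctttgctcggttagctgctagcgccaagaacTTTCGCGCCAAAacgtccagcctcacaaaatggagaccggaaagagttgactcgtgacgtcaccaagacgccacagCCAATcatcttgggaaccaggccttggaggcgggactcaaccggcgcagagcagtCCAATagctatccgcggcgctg
Rrm2: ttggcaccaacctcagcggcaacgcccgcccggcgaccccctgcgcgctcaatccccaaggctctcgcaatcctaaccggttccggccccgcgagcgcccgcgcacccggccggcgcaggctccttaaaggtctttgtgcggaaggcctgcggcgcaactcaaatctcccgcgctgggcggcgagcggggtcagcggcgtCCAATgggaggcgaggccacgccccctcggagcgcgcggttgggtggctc
Ccnb2: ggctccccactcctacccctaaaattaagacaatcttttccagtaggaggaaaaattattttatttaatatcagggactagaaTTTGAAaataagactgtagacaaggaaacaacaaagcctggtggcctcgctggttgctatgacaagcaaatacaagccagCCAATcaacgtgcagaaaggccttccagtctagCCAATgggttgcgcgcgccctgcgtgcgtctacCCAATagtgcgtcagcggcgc
Pcna: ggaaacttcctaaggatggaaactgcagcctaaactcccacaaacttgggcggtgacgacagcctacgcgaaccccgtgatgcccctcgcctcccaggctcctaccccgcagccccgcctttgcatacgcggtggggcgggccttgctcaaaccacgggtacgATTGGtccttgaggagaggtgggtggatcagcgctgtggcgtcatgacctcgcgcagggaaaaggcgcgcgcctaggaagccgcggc
All 6 hold a CCAAT box, Pcna included. The matched members without this box were Birc5, Ccne1, Cdc6, Cdk4, Nusap1, Tk1 and Tyms, of which Cdc6 and Tyms did not enter and the others did not pass limma for diet. Most members with the box that entered did not pass either, among them Mcm6, Mcm7, Rrm1, Cdk1 and Cdk2. A link between the box and the diet change was not tested. Of the 6 promoters shown, only that of Mcm5 holds the E2F letters, in overlapping matches that start at -153 and -149 from the start site. Only those of Mcm2 and Ccnb2 hold homology region letters, at -70 and -167.

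Of the 20 measured members of the mitosis group, 4 were at or above the array median on every array (Cdc20, Cenpa, Stmn1 and Cks2), 14 entered and 6 did not. In this group 2 of the 14 members (14.3%) rose with the diet in limma, where 6.16% of all genes rose. The median log2 ratio was 0.36 in wild-type and 0.38 in LASS2-/-, against 0.02 and -0.0042 over all genes. It was 0.64 in wild-type with the floor at the 25th percentile, and 0.66 in LASS2-/- with the mean of all probe sets. Ccnb2, Mki67, Top2a, Nusap1 and Prc1 entered through high-fat arrays alone, so the filter bears on this count and these medians. Stmn1 encodes stathmin, which destabilises microtubules, and had log2 signals of 9.34, 9.37, 10.22 and 10.16. On this probe set it was 1.83-fold and 1.73-fold higher on the high-fat diet, nearly alike in both genotypes (limma change 0.83 ± 0.14, adjusted p = 0.0012). Its chosen set ends in _s_at, and on the other set the change was 0.67 (adjusted p = 0.476 in limma). There the genotypes were not alike, with an unfloored log2 diet difference of 0.15 in wild-type and 1.18 in LASS2-/-. With the mean of both sets the change was 0.75 and did not pass (adjusted p = 0.067 in limma).

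Ccnb2, cyclin B2, a partner of Cdk1, had log2 signals of 2.76, 3.92, 7.04 and 7.35. Both chow arrays lay under the array median and both high-fat arrays above it. The difference was therefore at least 1.83-fold in wild-type and at least 2.10-fold in LASS2-/-, and limma on unfloored values gave adjusted p = 0.0266. With values raised to the array median its limma change was 0.97 and it still passed. Cdk1, the mitotic kinase itself, had 6.01, 6.87, 7.40 and 7.57, at least 2.34-fold in wild-type and 1.62-fold in LASS2-/-. It did not pass (limma change 1.05 ± 0.36, adjusted p = 0.0849), but passed with values raised to the array median (0.96, adjusted p = 0.0274).

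The proliferation marker Mki67 had log2 signals of 5.12, 5.48, 6.80 and 7.13, and like Ccnb2 it was under the array median on both chow arrays and above it on both high-fat arrays. Its diet ratio was at least 1.55-fold in wild-type and at least 1.81-fold in LASS2-/-, and it did not pass (adjusted p = 0.0795 in limma). Top2a, the topoisomerase that untangles chromosomes, had 5.57, 6.26, 7.03 and 6.68 (adjusted p = 0.29 in limma). Cdc20, an activator of the anaphase-promoting complex, had 6.67, 6.81, 7.10 and 7.29, and Racgap1, a regulator of cytokinesis, had 5.72, 6.33, 6.47 and 6.69. In all of these no chow array reached a high-fat array, but the limma adjusted p was 0.489 for Cdc20 and 0.574 for Racgap1.

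Other mitosis genes had no common order. Cks2, a subunit of cyclin-dependent kinases, had log2 signals of 10.92, 10.84, 10.93 and 10.99. Its high-fat arrays lay above its chow arrays, but by only 1.01-fold in wild-type and 1.11-fold in LASS2-/-. The centromere histone gene Cenpa had 7.87, 8.06, 8.02 and 7.75, without such a placement. Birc5, encoding survivin, had 5.35, 6.73, 6.64 and 6.59, with only the wild-type chow array apart. Ccna2, cyclin A2, had 6.90, 4.86, 6.77 and 6.94, low on LASS2-/- chow alone, whereas its other probe set had 5.75, 6.07, 6.69 and 6.94. Aurka, a spindle kinase, had 2.27, 6.34, 5.89 and 6.41, with both wild-type arrays under the array median. Its genotype ratio was therefore at least 1.13-fold on chow and at least 1.16-fold on the high-fat diet, and it passed neither limma test (adjusted p = 0.547 for genotype and 0.374 for diet). Nusap1 and Prc1 exceeded the array median on 1 array each, and Aurkb, Bub1, Bub1b, Plk1, Foxm1 and Ttk on none, with log2 signals from 0.82 to 6.13.

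At the 2-fold threshold the diet difference reached 4 members in wild-type (Ccnd1, Mcm2, Mcm5 and Cdk1), all higher, beside 3.38% of all genes (2.14% higher and 1.25% lower). In LASS2-/- it reached 6 members (Mcm2, Mcm4, Mcm5, Mcm6, Rrm2 and Ccnb2), also all higher, beside 5.02% of all genes (3.13% higher and 1.9% lower). Of the 31 members these are 12.9% and 19.4%. Between the genotypes the difference of these counts was not tested. It also depends on the probe set, since on its other sets Rrm2 was beyond 2-fold in wild-type and not in LASS2-/-. Both ratios were beyond 2-fold in Mcm2 and Mcm5, where 0.932% of all genes were higher in both. This did not hold in wild-type on the brightest set of each gene without an _x_at or _s_at ending. The unfloored log2 diet differences there were 0.53 for Mcm2 and 0.67 for Mcm5 in wild-type, and 1.72 and 1.57 in LASS2-/-.

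Other genes of the pathway were taken from 5 lists of 128 genes, of which 108 entered. For diet 15 of them rose and 3 fell in limma (16.7% against 11.2% of all genes), and for genotype 1 rose and 0 fell (0.926% against 0.852% of all genes). Of 38 other replication genes 6 rose and 1 fell, or 18.4% called, with a median change of 0.32. Cdt1, which loads the helicase with Cdc6, had log2 signals of 7.59, 7.37, 8.77 and 9.15 and a diet change of 1.48 ± 0.22 (adjusted p = 0.000518 in limma), which did not hold with the mean of its 3 probe sets (0.26, adjusted p = 0.837). Its second set, above the median of every array, had a mean diet difference of 1.14. The third, under the median of every array, had -1.82. Prim1, the primase subunit, had 7.39, 7.23, 8.48 and 8.35 (1.11 ± 0.23, adjusted p = 0.00641 in limma, and 0.79 with adjusted p = 0.117 for the mean of its probe sets). Lig1, the ligase that seals Okazaki fragments, rose by 0.93 ± 0.26 (adjusted p = 0.0322 in limma, 0.0542 with quantile normalization, 0.0504 with equal medians and 0.0938 with no filter). Mcm10, a replication factor outside the ring, fell instead, with log2 signals of 13.01, 13.18, 11.92 and 11.95 (-1.16 ± 0.09, adjusted p = 2.21e-06 in limma).

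Of 30 other mitosis genes 5 rose and 0 fell with the diet, or 16.7%, where 6.16% of all genes rose and 5.02% fell. Spc24, a kinetochore subunit, had log2 signals of 9.02, 8.49, 9.78 and 9.73 (1.004 ± 0.17, adjusted p = 0.00129 in limma), and Mad2l1, of the spindle checkpoint, had 7.87, 7.78, 8.66 and 8.58 (0.79 ± 0.20, adjusted p = 0.0215 in limma). Smc2, a condensin subunit, rose by 0.90 ± 0.24 (adjusted p = 0.0244 in limma). Smc2 and Mad2l1 did not pass with no filter, at 0.0731 and 0.0584. Ube2c, the ubiquitin-conjugating enzyme of the anaphase-promoting complex, was under the array median on chow only, at log2 signals of 5.22, 5.87, 7.07 and 7.37, and its diet ratio was at least 1.86-fold in wild-type and at least 2.13-fold in LASS2-/- (adjusted p = 0.0425 in limma, and between 0.0513 and 0.0877 with quantile normalization, equal medians, the mean of all probe sets or no filter).

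Regulators of G1 were called in both directions. Cdkn1a, the inhibitor p21, had log2 signals of 8.19, 8.50, 10.01 and 10.08 and was 3.54-fold and 3.00-fold higher on the high-fat diet (1.70 ± 0.16, adjusted p = 9.12e-06 in limma). Among 19 factors of the retinoblastoma, E2F and MuvB families and Myc, 0 rose and 2 fell with the diet, or 10.53%, a share near the 11.2% of all genes that changed. Myc, a driver of growth and of cell cycle entry, had 9.89, 10.35, 7.66 and 8.87 (-1.85 ± 0.18, adjusted p = 1.85e-05 in limma), and E2f8, an E2F that represses E2F targets, had 9.75, 10.00, 7.41 and 8.44 (-1.95 ± 0.20, adjusted p = 1.99e-05 in limma). Among 15 other cyclins and kinases 3 rose and 0 fell, or 20.0%: Ccng1 by 0.70 ± 0.13, Cdk6, a partner of D cyclins, by 0.60 ± 0.14, and Wee1, an inhibitory kinase of Cdk1, by 0.52 ± 0.13 (adjusted p = 0.00258, 0.0105 and 0.0195 in limma). Averaging the probe sets of a gene ended the calls of Cdk6 and Wee1, at 0.0648 and 0.0922, while the changes were 0.73 and 0.52.

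The pathway gene that rose with the LASS2-/- label, at a share of the lists close to that of all genes, was Cdkn2c. It encodes p18, an inhibitor of the kinases that D cyclins activate, and had log2 signals of 8.27, 9.36, 8.41 and 9.47. It was 2.12-fold higher on chow and 2.08-fold on the high-fat diet, and the diets hardly differed. The limma genotype change was 1.07 ± 0.17 (adjusted p = 0.00741), and this call was lost with quantile normalization (0.0589) and with equal medians (0.0786), while the change stayed at 1.04 and 1.02. Equal medians lowered every log2 value of the LASS2-/- chow array against wild-type chow, so that the median unfloored genotype ratio on chow over all genes went from 0.01 to -0.10.

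Markers of other liver cells were read beside these genes. With the diet, Col3a1 rose (adjusted p = 4.95e-06 in limma), Dcn rose by only 0.27 (0.0499) and Des fell (0.00491) among 7 stellate cell markers. Des was under the array median on both high-fat arrays. The summed linear signal of the list was 13736 and 14137 on the chow arrays and 18823 and 18043 on the high-fat arrays (wild-type first). Among 6 endothelial markers Cdh5 rose, with sums of 3419 and 3900 on chow and 4801 and 4419 on the high-fat diet. Among 9 macrophage markers Lyz2 rose with the diet (adjusted p = 0.0277 in limma), and Marco (0.000524) and Lyz2 (0.0403) rose with the LASS2-/- label. Over all genes the genotype calls went from 106 to 22 with quantile normalization and to 19 with equal medians. The sum of the macrophage list was 20686 and 20266 on the arrays labelled wild-type and 25412 and 29921 on those labelled LASS2-/- (chow first). Of the 5 measured hepatocyte markers Fgb and Cps1 fell with the diet, and the sums were 217826 and 231441 on chow and 193817 and 187730 on the high-fat diet. None of the 6 measured lymphocyte and plasma cell markers that entered passed, but Ighm and Jchain, picked with their values known, were highest on wild-type high-fat diet, at 12.41 and 9.73, and the list's sum was 6639 there against 2540 to 2755 on the other arrays. None of the 3 erythroid and 3 cholangiocyte markers that entered passed; the erythroid sums were 2470, 1959, 2116 and 1642 and the cholangiocyte sums 295.01, 332.8, 242.8 and 347.0. Of all these listed markers 0 were at exact 0 on any array, and the part of other cell types in the differences of the cell cycle genes was not tested.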

How the data were processed

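Log2 signals of 45037 probe sets were deposited by the authors, made with MAS5 per the submitters' processing notes (version and scaling target: not given in the sources used here). Detection calls were not used. The mean linear signal, trimmed by 2% at each tail, was 496.0 to 496.2 on the 4 arrays, and no further scaling was applied. Names came from the platform's annotation, updated through gene numbers to GRCm38.p6; 34945 probe sets had 1 symbol, 932 several and 9160 none here. Each gene is its brightest probe set, and genes under the median of all 4 arrays were left out. The 4 ratios are single arrays over single arrays, counted at 2-fold and without a test. The additive limma 3.58.1 model (R 4.3.3; 4 arrays, 3 coefficients, 1 residual degree of freedom, prior of 12.4 degrees of freedom, trend in signal) used unfloored log2 values, with Benjamini-Hochberg adjustment over 12444 genes and a threshold of 0.05. The fit was run on simulated data with known changes. The simulated noise took its spread along signal from these same arrays, so that run cannot show whether the trend of variance is right. All members are accounted for. Members with the value on every array, and up to 4 genes for each pathway list and factor, were named by a rule: those passing limma, those 2-fold apart, and members at or above the median on all arrays. The choice of further members given array by array was made with their values known. The members and lists were chosen with earlier results of these data known. Alternatives changed the scaling (quantile or equal medians), the floor (25th percentile), the threshold (1.5-fold), the probe sets (averaged, or none ending in _x_at or _s_at), the filter (none) and limma (no trend, robust, floored values). Other steps ran in Python 3.11.15 with pandas 2.3.3, numpy 2.4.6 and, for plots, matplotlib 3.10.9.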

Additional observations from a re-analysis of the deposited data

How the results depend on the processing

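Each difference rests on single arrays, so leaving out a replicate was not possible, and a fit on 3 arrays has no residual degree of freedom. No paired analysis was possible because the labels carry no replicate numbers. The count of members passing limma for diet was 8, and 4 with the mean of all probe sets (Mcm2, Mcm4, Rrm2 and Ccnb2), 4 without _x_at and _s_at sets (Ccnd1, Mcm4, Rrm2 and Ccnb2) and 0 without trend; with the other 6 alternatives it was 7 to 9, all of them rises. The count for genotype was 1, and 0 with quantile normalization, equal medians, the mean of all probe sets, robust moderation and without trend. With these 5 settings, in that order, 2, 2, 2, 3 and 1 members had an unadjusted p under 0.05. Members at least 2-fold apart with the floor at the 25th percentile numbered 6 for genotype on chow, 3 for genotype on the high-fat diet, 10 for diet in wild-type and 11 for diet in LASS2-/-, against 1, 0, 4 and 6. At 1.5-fold they numbered 3, 4, 11 and 12. For genotype on the high-fat diet the count was 1 with the mean of all probe sets and 1 without _x_at and _s_at sets. The lower floor brought in differences among dim signals, some of them lower (1 and 2 for genotype, 2 for diet in LASS2-/-). Of the limma changes of named genes recomputed under an alternative, 214 stayed on their side of the threshold, 69 no longer passed, 1 newly passed and none changed sign. The alternatives without a filter, without trend, with robust moderation and with floored values were added for single genes after seeing the data. Low signal kept 6 measured mitosis and 2 replication members out of the comparisons.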
